A study of Mus musculus with 6 samples.

Results

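The antiviral interferon-stimulated genes are a group of 35 listed genes whose products sense, degrade or block viral RNA and proteins, or switch on other genes of the same kind. They were examined in single nuclei of retinas from rd10 mice, in which rods and then cones are lost through a mutation of Pde6b. The members were chosen by gene symbol, and 33 of the 35 were found among the 32285 genes of the count files. The other members, Mx1 and Mx2, were not analysed here. By role, the list holds 16 effectors that act on viral RNA, proteins or budding, 5 genes of the ISG15 and ADP-ribosylation systems, 4 sensors of nucleic acids and cell death genes, 5 genes of the PYHIN family on chromosome 1, 4 transcription factors, and Epsti1.

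The 6 libraries came from mice of the strain B6.CXB1-Pde6b-rd10/J that received 1 intravitreal injection at P18 and were collected at P20. There were 3 libraries of saline control retinas (replicates 1, 2 and 6) and 3 of retinas treated with 20 ng recombinant mouse IL-27 (replicates 4, 5 and 10). Every mouse carried the rd10 mutation, so both groups were degenerating retinas and there was no wild type group. No label ties a library to a single retina or animal, so the p-values below measure the spread between these libraries.

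Interferons signal through cell surface receptors and the kinases Jak1, Jak2 and Tyk2, which activate transcription factors of the STAT family. A complex that holds Stat2 and Irf9 binds an element with paired GAAA repeats in the promoters of interferon-stimulated genes, whereas STAT dimers bind a shorter palindromic element. IL-27 signals through its receptor Il27ra with Il6st and also activates STAT proteins, and in the retina microglia and Muller glia are the cells best known for innate immune responses.

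The promoter letters of the members were searched for matches to these elements, and binding was not measured. Among the RefSeq promoter windows (GRCm38.p6, from 250 bases before to 50 bases after the gene start), 27 of the 35 members had an entry. A pair of GAAA repeats with any 2 bases between them, on either strand, was in the windows of 15 of these 27 members (55.6%), against 3.99% of 27025 genes in the table. The shorter letters TTCNNNGAA were in 6 of the 27 (22.2%), against 9.55% of all genes, and the 2 kinds of match overlap in Bst2. The following windows of 30 bases, each written on the strand of its gene, mark 1 match each in capitals for members that the results below turn on.
Ifit1, chr19:34640775-34640804: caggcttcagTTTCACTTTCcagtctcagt
Isg15, chr4:156200871-156200900: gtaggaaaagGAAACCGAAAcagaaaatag
Rsad2, chr12:26456553-26456582: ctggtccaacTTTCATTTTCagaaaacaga
Ifi213, chr1:173599326-173599355: cgtctctgagGAAATCGAAAgctatgaacc
Ifi211, chr1:173913064-173913093: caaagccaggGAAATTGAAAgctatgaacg
Ifi203, chr1:173942508-173942537: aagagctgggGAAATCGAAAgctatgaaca
Mndal, chr1:173880204-173880233: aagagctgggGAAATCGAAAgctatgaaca
Irf1, chr11:53769914-53769943: acagcctgatTTCCCCGAAatgatgaggcc
The 4 PYHIN genes shown, Ifi203, Ifi211, Ifi213 and Mndal, carried nearly the same letters after the match, and the windows of Ifi203 and Mndal were identical over all 30 bases. Irf1 is shown because it held the shorter letters and not the paired repeats. The Isg15 window also holds further matches that overlap the marked one on both sides and are partly in lower case.

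The libraries held 8968 to 9965 barcodes and 36678332 to 48260748 UMIs, and 52266 nuclei were retained with a median depth of 2782 to 3788 UMIs per library. Any pair of libraries shared between 15 and 27 barcodes, at most 0.327% of the smaller library. Nuclei fell into 28 clusters, from which 11 cell types were named by marker genes, with the members and their pathway genes left out of the clustering. Levels are given as CPM, the UMIs of a gene summed over the nuclei of a cell type in 1 library and scaled to the same total in every sum, and are not comparable between genes as 3' counts. UMI counts of several members are uncertain: Mndal (chromosome 1, 173849126 to 173942491) and Ifi203 (173920407 to 173942672) overlap on the same strand, Parp9 and Dtx3l overlap on opposite strands, and Ifit3 and Oas1a have close copies.

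Among the 11 cell types named, the members were expressed most highly in microglia, followed by the vascular cells. Muller glia and astrocytes came next, and neurons were lowest. A cluster of 115 leukocyte nuclei, left out of the comparisons, held the members at 8831 to 13728 CPM, on 3 to 56 nuclei per library. Since the cell types are clusters of the same nuclei, these levels are a description and were not tested. The summed level of the 33 members in microglia was 8573 ± 1283 CPM (SD, n = 6 libraries), with a range from 6561 to 10327 CPM. In endothelial cells it was 5535 ± 1161 CPM and in pericytes 4568 ± 1167 CPM (SD, n = 6), although pericytes rested on only 12 to 22 nuclei per library. The ranges of microglia and endothelial cells overlapped at their ends, since endothelial cells reached 7277 CPM in saline 1. Muller glia, the radial glia that span the retina, held 2597 ± 809 CPM and astrocytes 2377 ± 1070 CPM, which did not differ beyond their spread. The 6 neuronal types lay between 333 ± 176 CPM in RGC and 546 ± 197 CPM in HC, and their ranges all overlapped.

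**Figure D1:**
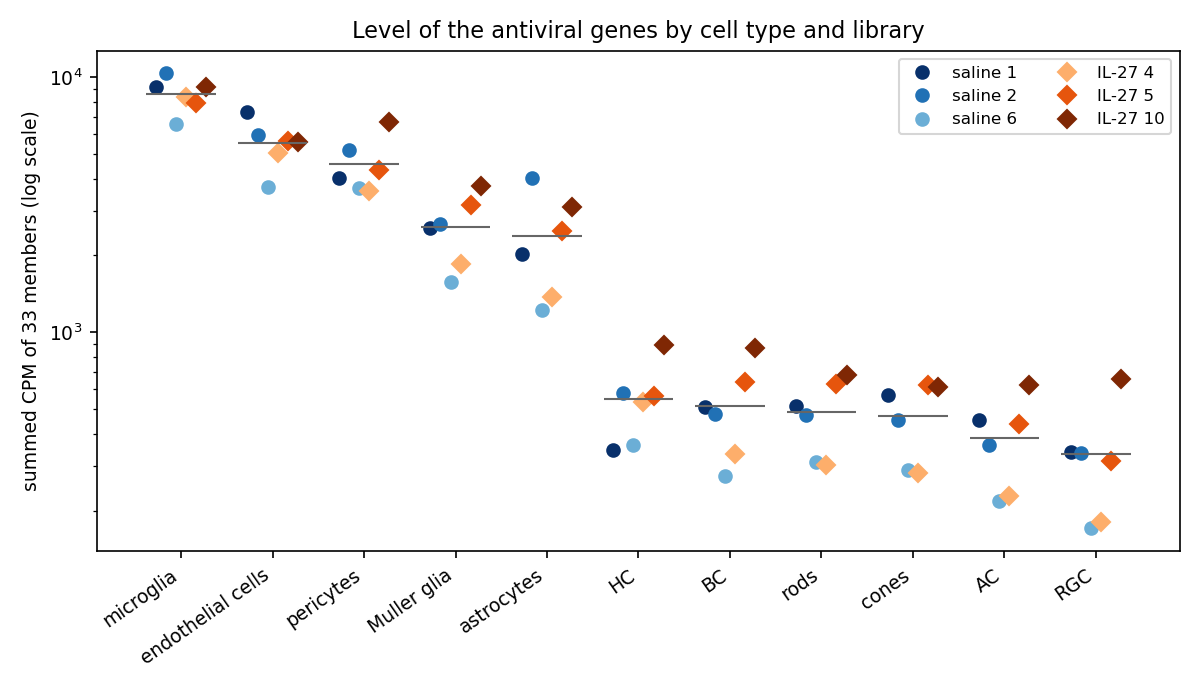
Summed CPM of the 33 members (log scale) in each cell type, with 1 point per library, blue or orange by treatment, and a bar for the mean. Microglia lie between 6561 and 10327 CPM and Muller glia between 1571 and 3759 CPM, while the points of the neurons reach at most 892 CPM.

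The class named microglia by its markers pools 2 clusters, and the larger of them also carried monocyte markers. The cluster of 470 nuclei held P2ry12 at 440 CPM, Siglech at 249 CPM and Csf1r at 606 CPM, with the monocyte genes Ccr2, Plac8 and Ly6c2 at 4.32, 2.88 and 2.16 CPM. The cluster of 928 nuclei held P2ry12 at 211 CPM, Siglech at 19.4 CPM and Csf1r at 306 CPM, and Ccr2, Plac8 and Ly6c2 at 445, 101 and 47.6 CPM, with Ccr2, Slfn4 and Ifi213 among its leading genes. Other microglial markers went the other way. Ptprc was at 1590 CPM in the larger and 1158 CPM in the smaller cluster, and Ctss at 1430 and 910 CPM. C1qb (314 and 299 CPM) and Tmem119 (23.0 and 20.2 CPM) were slightly higher in the larger one, and the rest of the 12 markers were lower. Resident microglia and monocyte-derived cells are therefore not separated under this name, and values of each cluster are given beside the results that differ between them. The members' mean level was 7012 ± 1327 CPM in the smaller and 9663 ± 1823 CPM in the larger cluster (SD, n = 6).

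Among the 11 cell types, without the leukocyte cluster, 21 of the 33 members were highest in microglia, 6 in endothelial cells, 5 in pericytes and 1 in astrocytes. The members differed widely in how far microglia exceeded Muller glia, with a median of 2.68-fold over the 33 genes. Epsti1 had a mean of 669 CPM in microglia and 3.28 CPM in Muller glia, and Irf8, a transcription factor needed for microglial development, had 316 and 5.72 CPM. The PYHIN genes, which encode binders of nucleic acids, were likewise 31.5-fold (Ifi204) to 410-fold (Ifi213) higher in microglia. In the smaller, Ccr2-low cluster alone the PYHIN genes were at 4.40-fold (Ifi203), 5.02-fold (Mndal), 22.5-fold (Ifi211), 30.7-fold (Ifi204) and 221-fold (Ifi213) of the Muller level, and the median over the 33 genes was 2.11-fold. Ifi203 was at 50.4 CPM in this cluster and 655 CPM in the larger one, and Mndal at 53.3 and 753 CPM. In contrast, 3 members were lower in microglia than in Muller glia, namely Ifit1 (0.573-fold), which binds viral RNA caps, Ifi44 (0.685-fold) and Cmpk2 (0.831-fold), a mitochondrial nucleotide kinase.

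**Figure D2:**
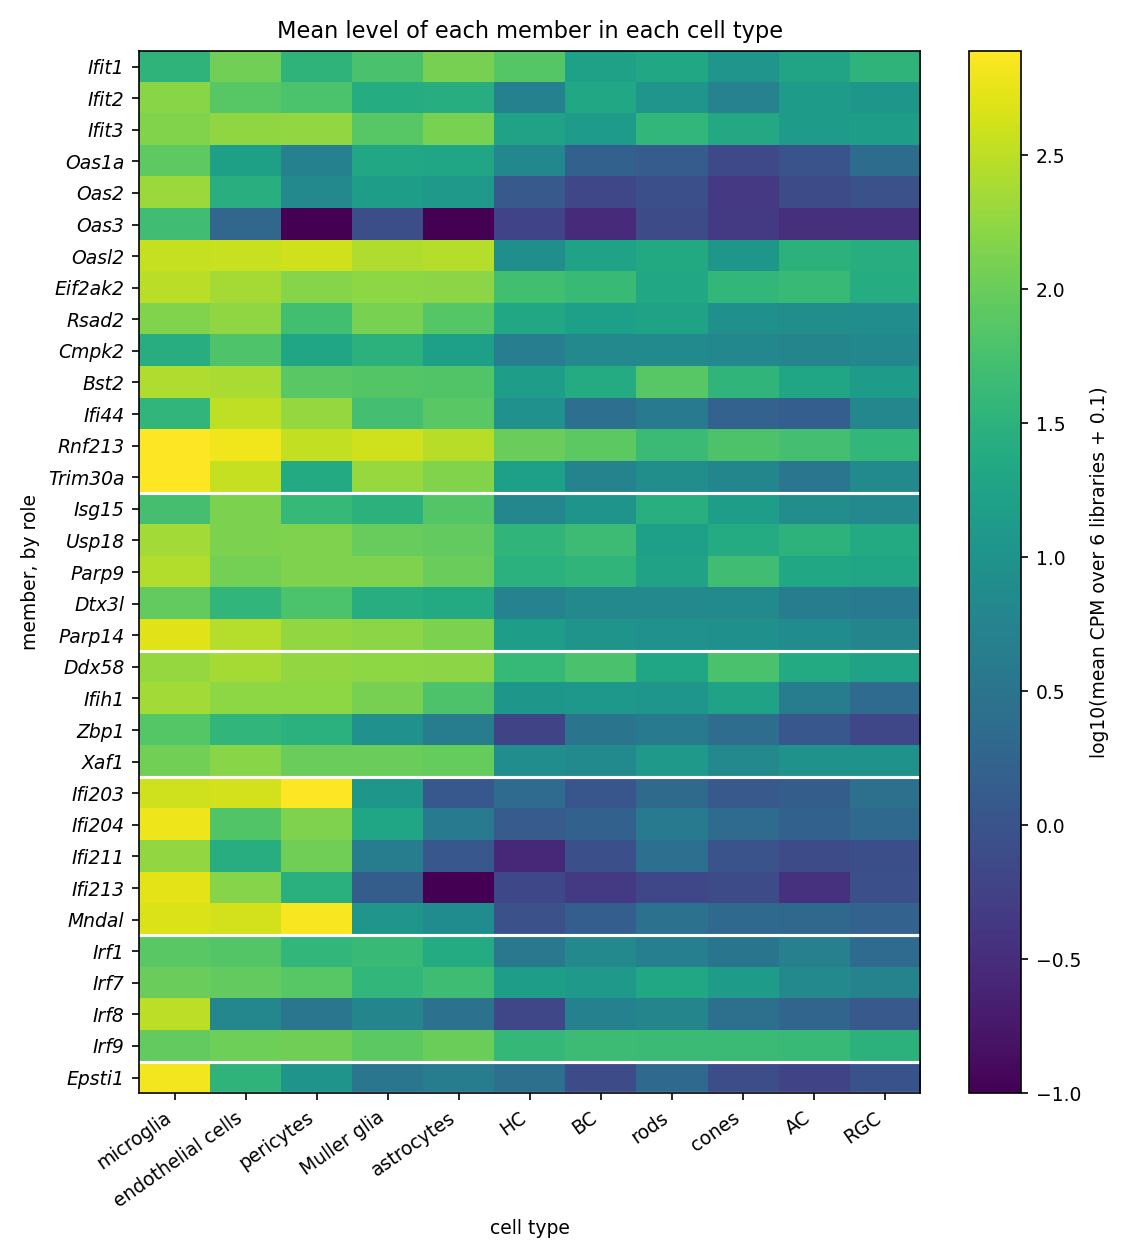
Mean level of each of the 33 members over 6 libraries, as log10(CPM + 0.1), with cell types in columns and members in rows grouped by role. Ifi213, Epsti1 and Oas3 are bright in microglia and dark in Muller glia, whereas Oasl2 and Rnf213 are bright in both.

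IL-27 vs saline was then compared in each cell type, to ask whether the injected cytokine moved these genes 2 days later. No member passed an adjusted p of 0.05 (edgeR's quasi-likelihood test, Benjamini-Hochberg over all genes of the cell type) in any of the 11 cell types, and DESeq2 also called 0. In Muller glia 31 members were tested and 0 called, against 0.0287% of all 13921 genes, and 0 members had an unadjusted p under 0.05, against 8.81% of genes. In microglia 33 were tested and 0 called, against 0% of 8034 genes, and again 0 members had an unadjusted p under 0.05, against 3.06% of genes. In Muller glia 30 of the 31 had a log2FC above 0 and their median was 0.34, beside 0.0016 over all genes tested. In microglia 13 were higher and 20 lower, with a median of -0.04 beside 0.0021 over all genes.

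Both classes are made up of several clusters. A cluster of 680 nuclei, placed with Muller glia by the marker rule, formed 20.2, 22.0 and 11.4% of this class in saline 1, 2 and 6. In IL-27 4, 5 and 10 it formed 1.85, 0.840 and 14.4%. With all libraries pooled, its members were at 1569 CPM and its Muller markers at 2639 CPM, against 2555 and 6737 CPM in the main Muller cluster. Rlbp1 was at 41.6 against 346 CPM, Slc1a3 at 278 against 1232 CPM and Abca8a at 172 against 1460 CPM. Of the 10 Muller markers only Vim was higher in it (103 against 56.8 CPM). Fbln1, Slc6a13, Mecom, Gja1, Optc and Zic4 were among its leading genes, and whether these nuclei are Muller glia was not tested. Without this cluster the median in Muller glia was 0.34, with 30 of 31 higher and 0 called. Rnf213 and Parp14 went from 0.34 to 0.24 and from 0.31 to 0.22. In the Ccr2-low microglial cluster alone 19 of 27 members tested were higher and the median was 0.17, whereas in the Ccr2-high cluster alone 10 of 33 were higher and the median was -0.11. No member was called in either cluster by edgeR, and 1 member in each had an unadjusted p under 0.05, against 2.87% and 3.90% of genes. These fits within clusters were chosen after seeing the data, and the difference between the clusters was not tested.

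In Muller glia the effectors, which destroy viral RNA or halt its translation, were the largest group, and 13 of the 13 tested had a log2FC above 0, with a median of 0.34 and no member called. Rnf213, a large ubiquitin ligase, was at 411, 419 and 256 CPM in the saline libraries and 310, 526 and 522 CPM in the IL-27 libraries. The groups overlapped, as IL-27 4 was below saline 1 and saline 2 (log2FC 0.34, SE 0.23, adjusted p-value 0.753). Oasl2, a relative of the 2-5A synthetases, had 257, 268 and 156 CPM with saline and 205, 300 and 422 CPM with IL-27 (log2FC 0.46, SE 0.25, adjusted p-value 0.687). Trim30a, a ubiquitin ligase that restrains innate signaling, had 210, 192 and 126 CPM against 142, 242 and 278 CPM (log2FC 0.34, SE 0.24, adjusted p-value 0.777). For both genes saline 6 was lowest and IL-27 10 highest, and IL-27 4 lay inside the saline range.

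Eif2ak2, the kinase PKR that stops translation upon sensing double-stranded RNA, was at 179, 170 and 115 CPM with saline and 146, 184 and 240 CPM with IL-27 (log2FC 0.31, SE 0.20). Rsad2 encodes viperin, which makes a chain-terminating nucleotide. It was at 98.0, 134 and 54.3 CPM in saline and 56.2, 175 and 252 CPM in IL-27 treated retinas. The fitted log2FC of Rsad2 was 0.76 with an SE of 0.45, and its adjusted p-value was 0.707. IL-27 4 was close to saline 6 for this gene, and IL-27 5 and IL-27 10 were above every saline library.

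The same order of libraries held in the other roles. Parp9, which modifies ubiquitin together with Dtx3l, was at 122, 137 and 88.8 CPM in saline and 115, 160 and 187 CPM in IL-27 libraries (log2FC 0.43, SE 0.19, unadjusted p 0.0508, adjusted p-value 0.565 in edgeR). Parp14, an ADP-ribosyltransferase, had 170, 173 and 98.9 CPM against 122, 191 and 227 CPM (log2FC 0.31, SE 0.24). Each of the 5 genes of the ISG15 and ADP-ribosylation group had a log2FC above 0 and none was called. Isg15 itself, the ubiquitin-like modifier that names the group, had a log2FC of 0.15 (SE 0.26).

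Among the sensors, Ifih1 encodes MDA5 and Ddx58 encodes RIG-I, which detect long and short viral RNA. Ifih1 was at 108, 117 and 71.1 CPM with saline and 90.9, 147 and 201 CPM with IL-27 (log2FC 0.58, SE 0.26, unadjusted p 0.05001, adjusted p-value 0.565 in edgeR). Ddx58 was at 173, 174 and 108 CPM and at 129, 207 and 229 CPM (log2FC 0.33, SE 0.23). Xaf1, a gene linked to cell death, had 98.2, 103 and 78.1 CPM against 83.0, 116 and 118 CPM (log2FC 0.20, SE 0.15). In all 3 genes IL-27 5 and IL-27 10 were above every saline library, while IL-27 4 was below saline 1 and saline 2.

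The transcription factors and PYHIN genes were lower in Muller glia but had a similar order. Irf8 had 4.93, 4.25 and 3.08 CPM in saline and 3.53, 9.65 and 8.90 CPM in IL-27 libraries, from 131 UMIs in all (log2FC 0.84, SE 0.38, adjusted p-value 0.565 in edgeR). Its mean level was 55.2-fold higher in microglia (316 CPM) than in Muller glia (5.72 CPM). Irf9, the partner of Stat2, had a log2FC of 0.09 (SE 0.18). The summed PYHIN level in Muller glia was 0.903 to 2.01% of its microglial level in the saline libraries and 0.633, 4.15 and 3.70% in IL-27 4, 5 and 10. The summed microglial markers (12 genes) in Muller glia were at 214 to 236 CPM with saline and 229 to 261 CPM with IL-27. That was 2.76 to 2.87% of their microglial level with saline and 2.82 to 3.14% with IL-27. P2ry12 alone was 145 of the 232 CPM in the main Muller cluster and at 44.8% of its microglial level. Over the single markers the median was 2.09%. Markers of infiltrating leukocytes were at 1.40 to 4.34 CPM with saline and 1.47 to 5.63 CPM with IL-27 in Muller glia, of 15 genes summed. The part of microglial or leukocyte RNA in the PYHIN and Irf8 levels of Muller glia was not tested.

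**Figure D3:**
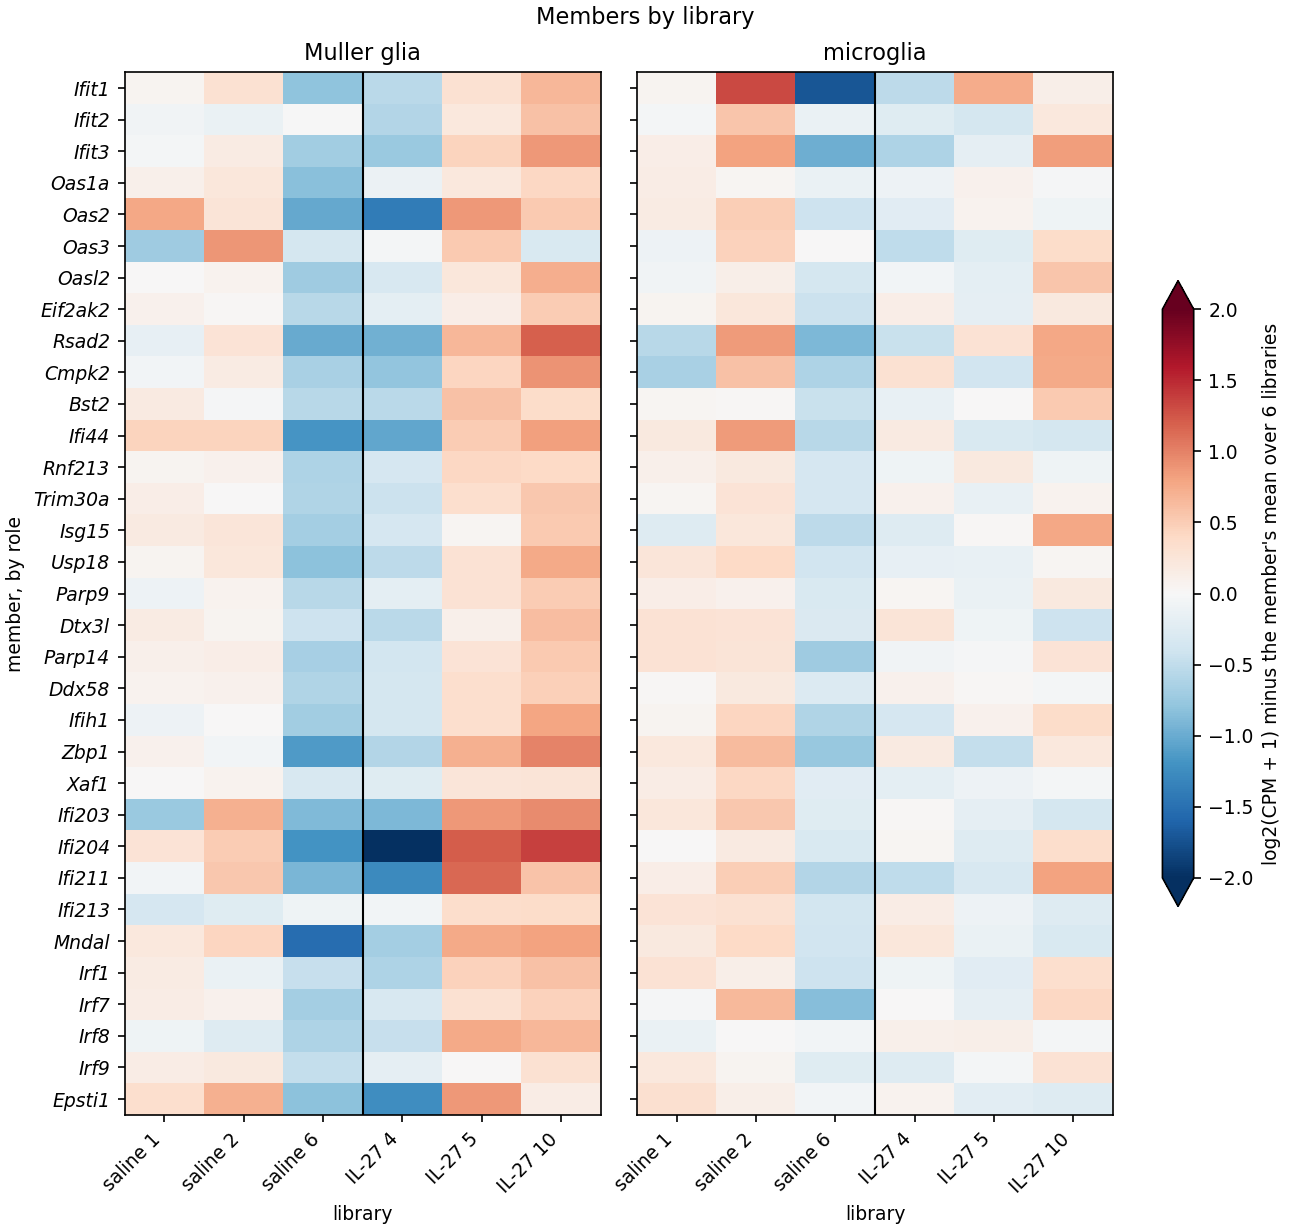
Each member's log2(CPM + 1) minus its mean over the 6 libraries, in Muller glia (left) and microglia (right), with saline libraries left of the line and IL-27 libraries right of it. In Muller glia the columns of saline 6 and IL-27 4 are blue (low) and those of IL-27 5 and IL-27 10 red (high) for most members, while in microglia saline 6 is blue and saline 2 red.

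The libraries of a group differed widely from each other. In Muller glia saline 6 was the lowest library for 21 of the 31 members tested and IL-27 4 for the other 10, whereas 14.6% and 19.6% of all genes tested were lowest in these libraries. IL-27 10 was highest for 25 members and IL-27 5 for 6, against 28.3% and 15.04% of all genes. The summed level followed the same order, with group means of 2270 ± 608 CPM for saline and 2924 ± 972 CPM for IL-27 (SD, n = 3), at 2572, 2668 and 1571 CPM in saline 1, 2 and 6 and 1856, 3156 and 3759 CPM in IL-27 4, 5 and 10. Over the 11 cell types, the summed level was lowest in saline 6 for 7 types and in IL-27 4 for 3, and it was highest in IL-27 10 for 7 types. As the cell types come from the same 6 libraries, these are not 11 separate observations. The median depth of Muller nuclei was 4456, 4487 and 4058 UMIs in saline 1, 2 and 6 and 4113, 4342 and 4242 UMIs in IL-27 4, 5 and 10, so it was lowest in saline 6 and IL-27 4 as well, and its part in the order was not tested. No label names a preparation batch, and the median over the 31 members ranged from 0.15 without saline 6 to 0.59 without IL-27 4.

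In microglia the summed level was 9127, 10327 and 6561 CPM in saline 1, 2 and 6 and 8328, 7941 and 9156 CPM in IL-27 4, 5 and 10. Saline 6 was lowest for 25 of the 33 members and saline 2 highest for 17, and the summed levels of the IL-27 libraries lay within the saline range. Rnf213 was at 824, 885 and 610 CPM in saline and 727, 887 and 727 CPM in IL-27 libraries, with a log2FC of 0.02 (SE 0.17). Trim30a was at 766, 901 and 592 CPM and at 795, 671 and 786 CPM (log2FC -0.01, SE 0.17). Parp14 was at 626, 611 and 314 CPM and at 490, 503 and 619 CPM (log2FC 0.04, SE 0.21). Each of the 3 genes had its IL-27 libraries close to or inside the saline range, and the sign of these small values turned in several of the alternatives given with the limits.

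Of the PYHIN genes in microglia, Ifi203 had the smallest unadjusted p of the members, at 469, 587 and 340 CPM with saline and 407, 355 and 314 CPM with IL-27 (log2FC -0.37, SE 0.19, unadjusted p 0.0673, adjusted p-value 0.999 in edgeR). Ifi204 was at 613, 687 and 491 CPM against 622, 506 and 777 CPM (log2FC 0.07, SE 0.18). Ifi213 was at 630, 644 and 404 CPM against 580, 486 and 437 CPM (log2FC -0.16, SE 0.19). The groups overlapped for these genes, and the same was true of Mndal, at 541, 618 and 360 CPM with saline and 554, 431 and 380 CPM with IL-27 (log2FC -0.15, SE 0.20).

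Epsti1 was at 828, 722 and 635 CPM in the saline microglia and 699, 575 and 553 CPM with IL-27 (log2FC -0.26, SE 0.16, unadjusted p 0.129). Oasl2 was at 329, 374 and 270 CPM against 332, 301 and 508 CPM (log2FC 0.20, SE 0.20). Ifit2, which binds viral RNA with Ifit1 and Ifit3, had 147, 224 and 139 CPM against 128, 119 and 176 CPM (log2FC -0.30, SE 0.22). Irf8 was at 287, 315 and 304 CPM against 339, 344 and 305 CPM (log2FC 0.13, SE 0.15). The groups overlapped for each of these genes, and Epsti1 turned to 0.15 in the Ccr2-low cluster alone. The summed leukocyte markers (15 genes) in microglia were at 501, 531 and 291 CPM with saline and 473, 535 and 682 CPM with IL-27, lowest in saline 6 as the members were, and their part in the members' level was not tested. This sum mixes Ccr2 (848 UMIs) with Siglech (370 UMIs), which was higher in the Ccr2-low cluster, so it does not measure leukocytes alone. The other 22 members in microglia had log2FC values from -0.43 (Ifi44) to 0.33 (Isg15).

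**Figure D4:**
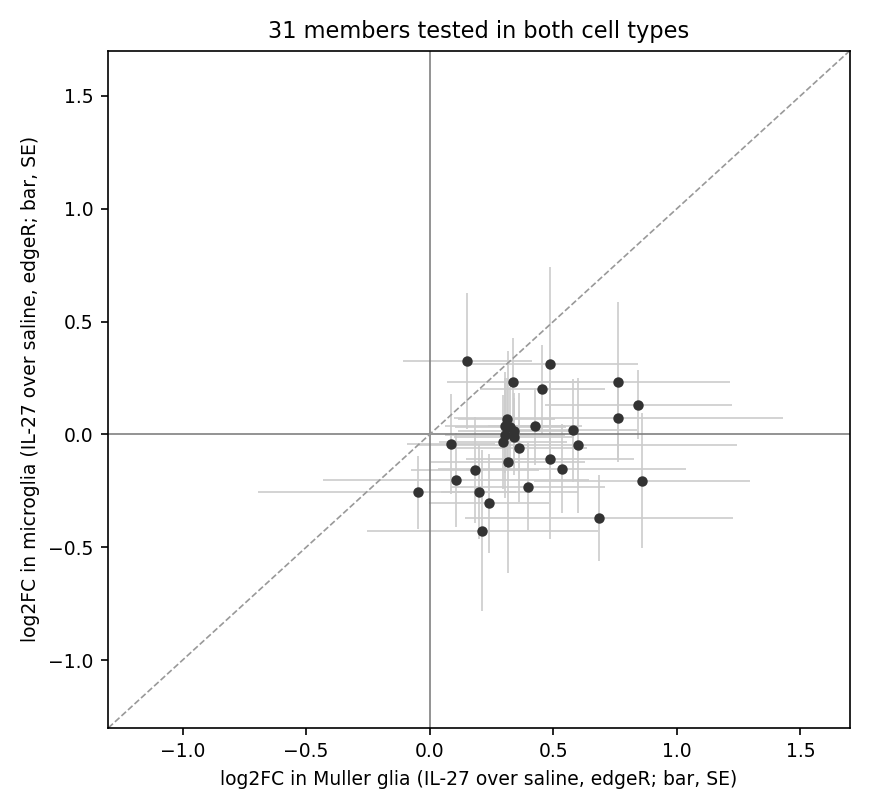
log2FC (IL-27 over saline) of the 31 members tested in both cell types, in Muller glia on the x axis and microglia on the y axis, with bars of 1 SE. On the x axis 30 of the 31 points lie above 0, up to 0.86 (Zbp1), and on the y axis the points lie on both sides of 0, from -0.43 (Ifi44) to 0.33 (Isg15).

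Because both cell types came from the same libraries, the difference of their responses was tested directly, with the library as a block. No member passed the threshold (edgeR's quasi-likelihood test, interaction of cell type and treatment), against 0.231% of the 14315 genes tested, and 9 of the 33 had an unadjusted p under 0.05, against 6.18% of genes. The response was lower in microglia than in Muller glia for 32 of the 33 members, with a median difference of -0.37 in log2FC beside -0.02 over all genes. Ifi203 had the smallest p, with a difference of -1.12 (SE 0.34, unadjusted p 0.00218, adjusted p-value 0.289). On the Muller side, 42.5% of its 294 UMIs came from a cluster of 49 nuclei with none in IL-27 4, and without that cluster the difference was -0.86 (SE 0.32, adjusted p-value 0.607). Usp18, which removes Isg15 and dampens interferon signaling, differed by -0.58 (SE 0.21, adjusted p-value 0.542), and Ifih1 by -0.52 (SE 0.19, adjusted p-value 0.545). These 3 genes did not pass the adjustment, and the test called Ifi203 with no filter on low counts (against 0.29% of genes) and without saline 2 (against 0.265%), whereas without IL-27 4 it called 5 members (Ifi203, Ifi204, Mndal, Usp18 and Zbp1), against 0.401% of genes. The median difference was -0.31 without the 49 nuclei and -0.33 without the cluster of 680 nuclei. It was -0.29 with the Ccr2-low microglial cluster alone and -0.49 with the Ccr2-high one, with 0 members called in each of these fits.

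In the neurons the members were low, and 0 were called in rods (0.00766% of genes called), cones (0%), BC (0.00669%), AC (0.00591%), HC (0%) and RGC (0%). Their log2FC values were mostly above 0, with 22 of 25 members higher in rods, 25 of 26 in BC, 25 of 29 in AC, 14 of 14 in HC and 21 of 21 in RGC, and medians between 0.28 and 0.57. In cones 11 of 17 were higher, with a median of 0.15. With no filter on low counts, 1 member was called in rods (Rsad2, against 0.0801% of genes), 8 in BC (against 0.198%) and 2 in HC (Trim30a and Rnf213, against 0.152%). Without IL-27 10 the median was 0.01 in rods, -0.02 in AC and -0.18 in RGC, and it was -0.16 in cones without IL-27 5 and -0.09 without saline 6.

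HC gave the smallest p-values of any cell type. Rnf213 in HC was at 60.6, 89.7 and 57.5 CPM with saline and 96.6, 108 and 183 CPM with IL-27, so that the groups did not overlap (log2FC 0.85, SE 0.22, unadjusted p 0.00074, adjusted p-value 0.401 in edgeR). Trim30a was at 1.92, 10.3 and 11.5 CPM against 30.1, 17.5 and 20.96 CPM, from 77 UMIs in all (log2FC 1.69, SE 0.45, adjusted p-value 0.415). In HC, 5 of the 14 members tested, Eif2ak2, Bst2, Rnf213, Trim30a and Irf7, had every IL-27 library above every saline library, against 5% of genes. Each HC sum rested on only 50 to 107 nuclei, and the median of 0.57 became 0.20 when doublets were kept.

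In BC, the members with an unadjusted p under 0.05 numbered 6 of 26, namely Oasl2, Eif2ak2, Rnf213, Parp9, Mndal and Irf8, against 3.20% of genes. Rnf213 in BC was at 79.7, 72.5 and 47.1 CPM with saline and 51.5, 117 and 123 CPM with IL-27 (log2FC 0.57, SE 0.26), which again placed saline 6 and IL-27 4 below the other libraries. Rsad2 in rods was at 12.6, 17.1 and 6.32 CPM against 7.69, 20.9 and 40.2 CPM (log2FC 0.93, SE 0.41, unadjusted p 0.0373).

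Part of the RNA counted in neurons can be free RNA, so the members were set beside the Muller markers in the same sums. In rods, the members' summed level was 16.3 to 19.9% of their Muller level over the libraries, and the Muller markers were at 11.4 to 15.2% of theirs. Gene by gene, the 27 members above 10 CPM in Muller glia were in rods at a median of 13.6% of their Muller level, and the 10 Muller markers at a median of 16.8%. No member in rods exceeded the highest marker, Vim, at 110%, which is not particular to Muller glia (545% in HC and 363% in endothelial cells). The next marker in rods was Clu at 42.0%. Bst2 (104%), Isg15 (90.2%), Irf7 (57.7%), Irf9 (54.8%) and Ifit3 (49.5%) were above Clu, and the rest of the 27 members were below it. In RGC the medians were 14.0% for the members and 3.21% for the markers, and 14 of the 27 members exceeded every marker, whereas 7 did so in BC and 7 in AC. How much of the rods' values is free RNA was not tested.

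As a measure that needs no fit, the members tested were counted whose groups did not overlap. In Muller glia 0 of 31 had every IL-27 library above every saline library, against 5.39% of genes, and 0 had them below, against 8.01%. In microglia it was 0 of 33 in either direction, against 4.17% and 4.14% of genes. In the neurons other than HC there were again 0 members, where 4.19% of genes were higher and 4.38% lower without overlap in rods, 4.36% and 4.8% in cones, 3.11% and 5.64% in BC, 3.46% and 5.01% in AC and 3.03% and 5.61% in RGC. No member was lower without overlap in HC, against 4.61% of genes. In astrocytes there were 0 (5.36% and 3.94% of genes), in endothelial cells Ifih1 was lower (4.27% higher and 3.79% lower) and in pericytes Mndal was higher (4.39% in each direction).

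The vascular cells and astrocytes showed no common direction. No member was called in endothelial cells (0% of genes), pericytes (0.382%) or astrocytes (0.029%), and the medians were -0.06, -0.15 and -0.05 over the 18, 4 and 15 members tested. Parp14 in endothelial cells was at 431, 524 and 249 CPM with saline and 152, 265 and 118 CPM with IL-27 (log2FC -1.09, SE 0.34, unadjusted p 0.00539, adjusted p-value 0.9997 in edgeR). The groups overlapped, since IL-27 5 was above saline 6.

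Within a cell type, the members were spread unevenly over single nuclei. Each nucleus was thinned to 1000 UMIs, which left out 6 to 16 Muller nuclei and 10 to 27 microglia per library. At this depth, 31.5, 33.6 and 15.5% of Muller nuclei in saline 1, 2 and 6 and 23.1, 41.1 and 50.1% in IL-27 4, 5 and 10 held 3 or more different members. The 95% exact binomial intervals, from counting error only, were 13.2 to 18.1% for saline 6 and 46.4 to 53.8% for IL-27 10. With all UMIs kept, these shares were 83.5, 84.4 and 62.1% and 72.2, 92.1 and 88.5%. The libraries again fell close to the order of the summed level, and the median Muller nucleus held 2, 2 and 1 member UMIs with saline and 1, 2 and 3 with IL-27. In rods, where the members were low, 0.527 to 3.37% of thinned nuclei held 3 or more members (0.876 to 6.54% unthinned), and the rods and Muller nuclei had median depths of 1209 to 1337 and 4058 to 4487 UMIs.

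In microglia 72.7 to 90.4% of thinned nuclei held 3 or more members, with a mean of 83.2% over the libraries, and in endothelial cells the mean was 74.2%. The variance of member UMIs over their mean was between 2.42 and 4.25 for Muller nuclei and between 4.33 and 5.76 for microglia, where 1 would be the value for random draws at an equal rate. Members were also found together, as the median pair in Muller glia was seen in the same nucleus 1.38 to 1.91 times as often as the product of the separate shares gives. In microglia it was 1.19 to 1.35 times. These ranges cannot be compared, since the ratio has a lower ceiling where members are found in more nuclei. The pairs counted also differed (165 to 327 in Muller glia, 348 to 498 in microglia), and the Muller values include the cluster of 49 nuclei. In Muller glia, 1 nucleus held up to 19 of the members among its 1000 UMIs.

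**Figure D5:**
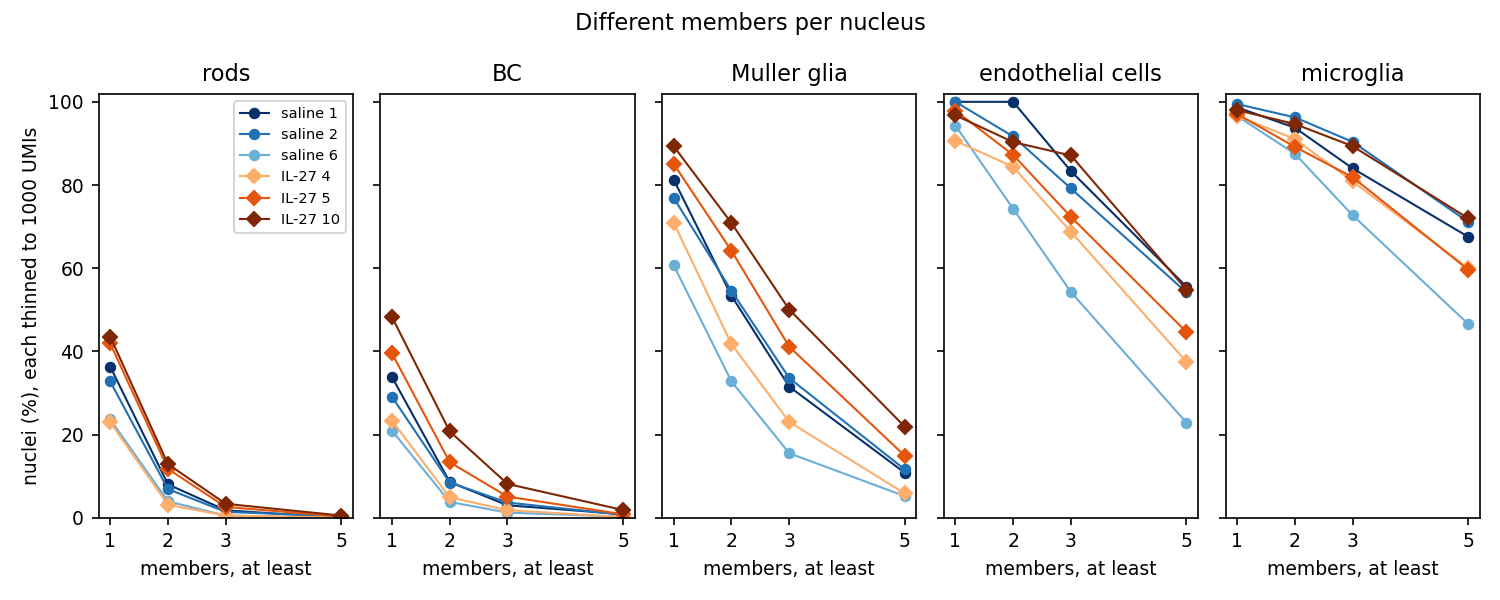
Share of nuclei (%) with at least 1, 2, 3 or 5 different members after thinning to 1000 UMIs, with 1 line per library. In Muller glia the lines of the libraries are spread, from 15.5 to 50.1% at 3 members, and in microglia all libraries lie above 72% there.

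A small cluster of 49 Muller nuclei, 0.907% of the 5401 retained, held the members at a far higher level than the rest. Its Muller markers summed to 4995 CPM against 6737 CPM in the main Muller cluster, with Slc1a3 at 1672 against 1232 CPM and Aqp4 at 786 against 556 CPM, but Glul at 171 against 999 CPM and Abca8a at 343 against 1460 CPM. Its microglial markers were at 209 CPM against 232 CPM there. Cxcl10, Ccl2, Gbp5, Gbp2 and Rsad2 were among the genes that led the cluster, so its high member level is a description and was not tested. Its members summed to 18033 CPM over all libraries, and each of its 48 nuclei deep enough to be thinned held 5 or more members. These nuclei held 6.74% of all member UMIs in Muller glia, and 20 members were over 5-fold higher in them than in the other Muller nuclei.

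The members differed in how strongly they were concentrated in this cluster. Rsad2 was at 3210 CPM there and 96.6 CPM in the other Muller nuclei, and 24.6% of its Muller UMIs came from the 49 nuclei. The PYHIN genes were the most concentrated, from 25.1% of UMIs for Ifi204 to 45.3% for Ifi211, although the last rests on 48 of 106 UMIs. Irf1, an early transcription factor of the response, had 10.7% of its UMIs there, while Oasl2 had 2.73% and Xaf1 1.75%. Irf9 was no higher in the cluster, at 75.2 CPM against 82.4 CPM elsewhere, and Irf8 had 2 UMIs in it.

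The cluster was found in 5 of the 6 libraries, with 7, 9 and 5 nuclei in saline 1, 2 and 6 and 15 and 13 in IL-27 5 and 10. IL-27 4 had 0 of 809 Muller nuclei in it, which allows a share of up to 0.371%. Without these nuclei the summed member levels in Muller glia were 2487, 2482 and 1511 CPM with saline and 1856, 2893 and 3446 CPM with IL-27, the median log2FC was 0.31, and 28 of 31 members were higher with 0 called. In this edgeR fit 3 of the 31 members had an unadjusted p under 0.05, against 8.93% of genes. Of the 612 Muller nuclei with 5 or more members, 524 were in the main cluster, 48 in the small one and 40 in the cluster enriched in saline libraries. The 612 nuclei and the other 4730 had median UMIs of 4528.5 and 4265.5, median mitochondrial counts of 0.280% and 0.304%, and median doublet scores of 0.0256 and 0.0228.

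The genes upstream of the members and other interferon-induced genes were counted from a separate list of 60 genes. In Muller glia 46 were tested and 0 called by edgeR, 39 were higher and 7 lower, and their median log2FC was 0.22. In microglia 42 were tested and 0 called, with 27 higher and a median of 0.06. The interferon-induced genes outside the members, such as the guanylate-binding proteins, were 22 of 23 higher in Muller glia with a median of 0.31, and 11 of 19 higher in microglia with a median of 0.01. The 7 receptors tested in Muller glia were divided, with 4 higher and 3 lower.

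Stat2 in Muller glia was at 233, 219 and 136 CPM in saline and 167, 276 and 325 CPM in IL-27 libraries (log2FC 0.40, SE 0.25). This transcription factor, which is interferon-induced itself, was thus lowest in saline 6 and IL-27 4, as the members were. In contrast, the kinase Jak1 lay between 106 and 119 CPM over the 6 libraries. Tyk2 lay between 32.8 and 40.5 CPM, although it too was lowest in saline 6. Jak2 was lowest in saline 6 and next lowest in IL-27 4, as the members were. It was at 68.8, 84.2 and 57.4 CPM with saline and 61.8, 82.0 and 78.2 CPM with IL-27.

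The interferon receptors showed no such order. Ifnar1 was at 20.1, 21.7 and 21.6 CPM with saline and 28.8, 24.1 and 22.2 CPM with IL-27, without overlap between the groups, which held for 5.39% of genes in this direction (log2FC 0.27, SE 0.15, adjusted p-value 0.684 in edgeR). Ifnar2 lay between 47.9 and 57.9 CPM, Ifngr1 between 20.4 and 27.3 CPM and Ifngr2 between 11.3 and 16.5 CPM. In microglia Stat2 was at 454, 433 and 234 CPM with saline and 403, 427 and 487 CPM with IL-27 (log2FC 0.22, SE 0.20). Microglial Ifnar1, Ifnar2, Ifngr1, Ifngr2, Jak1, Jak2 and Tyk2 had log2FC values from -0.11 (Ifnar2) to 0.18 (Ifngr1).

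The ligands themselves were hardly counted. Ifnb1, Ifng, Ifna2, Ifna4 and Ifne had 0 UMIs among 23384622 UMIs of Muller glia, which allows a level of up to 0.128 CPM. In microglia Ifnb1 had 1 UMI and Ifng 0 among 2999354 UMIs, where 0 counts allow up to 1.00022 CPM. Ifnk, an interferon of epithelia, had 151 UMIs in Muller glia, at 4.14 to 8.24 CPM. Il27ra, which IL-27 needs for signaling, had 0 UMIs in Muller glia and 1 in microglia, so its level was below what these sums can resolve. The limits for 0 counts cover counting error only.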

How the data were processed

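Single nuclei were prepared from frozen retinas with the Chromium Nuclei Isolation Kit and sequenced as droplet libraries. The authors deposited whole UMI counts for each called barcode, made with Cell Ranger 9.0.1 according to the submitters' processing notes (the file headers name 8.0.1), without normalization, and named Seurat 5.2.1 for later steps. Here, a barcode was retained with more than 500 UMIs, 200 or more genes and less than 5% mitochondrial UMIs. Doublets (610 to 713 per library) were then taken out by their Scrublet score, assuming 8% less the homotypic pairs (scanpy 1.11.5). Louvain clustering (igraph 0.11.9) used 2000 variable genes, 25 components, 20 neighbours and a resolution of 0.25, without integration. Clusters with at least 3 markers of a class were named. Counts were summed per library and cell type, leaving out nuclei whose log2 total lay more than 2 MAD from the median. The sums passed filterByExpr (minimum 10), TMM factors were applied, and the quasi-likelihood test of edgeR 4.0.16 (R 4.3.3) was run, each cell type having its own Benjamini-Hochberg correction. The test was checked on simulated data. DESeq2 1.42.0 and the settings listed with the limits were alternatives, and fits that left out or kept single clusters of microglia and Muller glia were added after seeing the data. Spread over nuclei was measured after thinning to 1000 UMIs. Gene positions are from GENCODE M21 on GRCm38, in which 32158 of 32285 identifiers were found (99.6%), since a genome build is not given in the sources used here.

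The members and lists were chosen with earlier results of these data known. Named with values in every library are members past an adjusted p of 0.05, and, in Muller glia and microglia, the 10 members with the highest mean CPM and the 3 with the smallest unadjusted p. The values of 1 gene of the pathway list are not reported here. Members named elsewhere were chosen after their values were seen. 1 cluster of 1062 nuclei that matched no class was left out, as was a cluster of 115 leukocyte nuclei.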

Additional observations from a re-analysis of the deposited data

Results flagged for a closer look

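Signals appeared in 2 groups of nuclei that enter none of the comparisons. A cluster of 1062 nuclei with a median of 772.5 UMIs, which matched no cell type and was led by Jun, Atf4 and Ftl1, held the members at 2476, 2279 and 1541 CPM in saline 1, 2 and 6 and 2678, 3683 and 3018 CPM in IL-27 4, 5 and 10, and was flagged for the 3683 CPM of IL-27 5, above the saline libraries. A cluster of 115 nuclei with lymphocyte and monocyte markers was flagged for its 56 nuclei in IL-27 5, against 38, 3 and 7 in the saline libraries and 5 and 6 in IL-27 4 and 10. Its members were at 8831 CPM in IL-27 5 and 13728 CPM in saline 1, above the 7941 and 9127 CPM of microglia in these libraries.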

How the results depend on the processing

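A count of called members was taken as changed past 1.5 times and a median past 1 SD of the library shifts, which is wide (0.28 to 0.72 on the log2 scale), so that 184 of 190 counts and 186 of 190 medians over 11 cell types and the difference of response stayed within these limits although several medians turned sign. The count of 0 called members held in Muller glia and microglia under every alternative run. With no filter on low counts, 1 member was called in rods (Rsad2, against 0.0801% of genes), 8 in BC (Ddx58, Oasl2, Usp18, Bst2, Rnf213, Rsad2, Parp9 and Eif2ak2, against 0.198%), 2 in HC (Trim30a and Rnf213, against 0.152%) and 1 for the difference of response (Ifi203, against 0.290%). The cause was not tested. Leaving out 1 library, the difference of response called 0 to 5 members, 5 without IL-27 4 and 1 without saline 2 (Ifi203), and its median ranged from -0.61 to -0.17. The medians ranged from 0.15 to 0.59 in Muller glia, from -0.22 (without saline 6) to 0.13 (without saline 2) in microglia, from -0.18 (without IL-27 10) to 0.70 in RGC, from -0.16 (without IL-27 5) to 0.46 in cones, from 0.01 (without IL-27 10) to 0.64 in rods, from -0.02 (without IL-27 10) to 0.57 in AC, from -0.40 to 0.45 in astrocytes and from -0.18 to 0.11 in endothelial cells. In pericytes the median ranged from -0.35 to 0.28, and was 0.26 with DESeq2 and 0.24 with no filter. In HC it was 0.20 with no doublet removal.

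In microglia some values near 0 changed sign: Parp14 with 1% mitochondrial counts (-0.0763), Rnf213 with all nuclei (-0.0016) and with a resolution of 0.5 (-0.0072), and Trim30a with no filter (0.0108). In fits added after seeing the data, Epsti1 (0.15) and Ifi213 (0.16) turned in the Ccr2-low cluster alone and Parp14 (-0.11) in the Ccr2-high cluster alone. Leaving out 1 library gave Ifi204 -0.0662 to 0.21, Mndal -0.34 to 0.0234, Oasl2 -0.0205 to 0.34, Parp14 -0.21 to 0.20, Rnf213 -0.13 to 0.13 and Trim30a -0.15 to 0.15. Shares of nuclei with 3 or more members depend on depth by construction. Thinned to 500 and 2000 UMIs, the mean shares were 0.548 and 3.64% in rods, 1.09 and 9.25% in BC, 13.6 and 58.3% in Muller glia, 57.5 and 93.8% in microglia and 37.99 and 92.3% in endothelial cells. For at least 2 and at least 5 members they were 7.78 and 0.227% in rods, 10.0 and 0.802% in BC, 52.9 and 11.7% in Muller glia, 92.1 and 62.8% in microglia and 88.0 and 44.9% in endothelial cells. No paired analysis was possible because the groups share no replicate number. Pericyte and endothelial sums were the shallowest, from 29351 and 72490 UMIs.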
